A study of Drosophila melanogaster with 8 samples.

Results

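The genes described are core components of the 3 modules that set apical and basal identity in fly epithelia, together with the cadherin of their adherens junctions, 10 genes in all. They are scrib, dlg1 and l(2)gl of the Scribble module, crb, sdt and Patj of the Crumbs complex, baz, par-6 and aPKC of the Par complex, and shg, which encodes E-cadherin. Each was chosen by name and matched to its FlyBase identifier. All 10 were found among the 15682 gene rows of the count table and all 10 passed the filter on low counts.

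Tumours dissected from the eye discs of Drosophila melanogaster larvae were compared between a control diet with 0.15 M sucrose (CD, day 8) and a diet with 1.0 M sucrose (HSD, day 14), with 4 libraries each. Every animal in both groups carried the same Ras/Src genotype. Clones positive for GFP, made with the MARCM system and an eyeless-driven flippase on FRT82B chromosomes, expressed an oncogenic ras1 transgene (UAS-ras1G12V) under an actin promoter Gal4 and were homozygous for a stop allele of csk, whose product restrains Src. No library came from tumour-free discs. Tissue was pooled from several animals per library, the discs are mosaics of clone and other cells, and the larvae on HSD were older by design of the sampling, so diet and age cannot be told apart.

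In an imaginal disc epithelium, the Crumbs and Par complexes mark the apical side and the Scribble module marks the side below the adherens junction. The modules restrain each other, largely through phosphorylation of Lgl and Par proteins by aPKC. E-cadherin joins neighbouring cells at the adherens junction and is tied to actin by catenins. Loss of scrib, dlg1 or l(2)gl turns a disc into a multilayered neoplastic mass, for which these genes are known as neoplastic tumour suppressors. Excess Crumbs expands the apical membrane and can also disturb tissue architecture.

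Levels are given as CPM, the counts of a gene per 1000000 counts of its library after scaling by trimmed mean of M values (TMM). Transcripts of 3 members, l(2)gl, crb and shg, stood about 2-fold higher in HSD tumours, and baz stood 1.57-fold higher. Transcripts of dlg1 fell to 0.705 of their CD level. Smaller rises were called for sdt, par-6 and scrib, which depended on the scaling of the libraries, and no change was called for Patj or aPKC. In all, 8 of 10 members had an adjusted p under 0.05 by edgeR, 7 higher and 1 lower in HSD. Over all 9257 genes tested the share called was 52.1%, with 25.9% higher and 26.2% lower. The members are abundant transcripts, with 910 to 17407 counts per library, and among the 2874 genes at least as abundant as the least abundant member 67.8% were called, 43.1% higher. The median log2 fold change of the 10 members was 0.33, and that of all genes tested was 0.00. A rise of at least 1.5-fold was called for 4 members, against 14.4% of all genes tested. The libraries of the diets did not overlap for 7 members, against 50.5% of all genes tested. For this count and for that of 1.5-fold rises, the share among equally abundant genes was not computed.

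**Figure D1:**
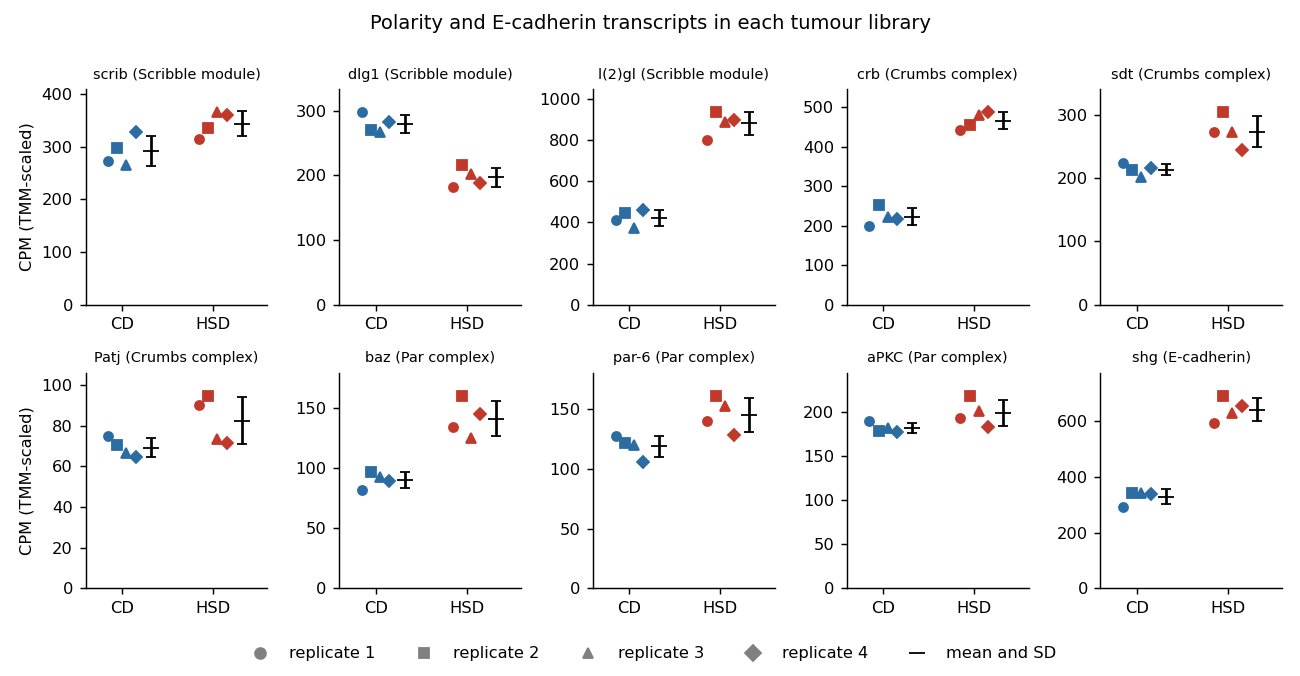
CPM on the TMM scale (vertical axis, starting at 0) of each member in each library, with CD in blue, HSD in red, marker shape for the replicate number, and the mean with its SD in black. The diets are apart for l(2)gl, crb, sdt, baz, par-6 and shg, with HSD above, and for dlg1, with HSD below, and they overlap for scrib, Patj and aPKC.

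CD replicate 1 and HSD replicate 4 stood apart from the other libraries on the second principal component, which held 10.3% of the variance. CD replicate 1 also held salivary gland transcripts, with 4599.5 CPM summed over 6 glue genes, against 255 CPM or less in each other library. HSD replicate 4 had the most fat body transcripts, with 3027 CPM summed over 4 genes, against 739 to 1292 CPM in the other HSD libraries and 1256 to 1936 CPM in CD. Both libraries are kept below, and values without them are given where a call rests on them. Of 7 eye disc markers, all tested, 5 were called lower in HSD and none higher, with a median of -0.71 on the log2 scale and a summed level of 2164 to 2389 CPM in CD and 1241 to 1555 CPM in HSD. Their part in the changes of the members was not tested. The Csk gene had counts in all libraries, from 2855 to 7014, and since both groups carry the stop allele this does not check the labels. Csk went from 234 ± 7.68 to 310 ± 57.3 CPM (SD, n = 4 each), or 0.40 on the log2 scale by edgeR (adjusted p = 0.0128), and the diets overlapped. Ras85D, the gene of which the transgene is an activated form, rose from 294 ± 13.0 to 588 ± 49.7 CPM (SD, n = 4 each), or 1.00 on the log2 scale by edgeR (adjusted p = 1.25e-06), without overlap. The part in the members' changes of the share of clone cells or of transgene output was not tested.

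The Scribble module did not move as a unit. The gene l(2)gl encodes Lgl, a basolateral WD40 repeat protein that aPKC removes from the apical cortex, and lies on chromosome arm 2L (BDGP6 9839 to 21376, 13 exon blocks). It had 412, 446, 372 and 459 CPM in CD replicates 1 to 4 and 801, 934, 890 and 897 CPM in HSD replicates 1 to 4. All HSD libraries lay above all CD libraries, and the lowest HSD library was HSD replicate 1. The mean rose from 422 ± 38.7 to 881 ± 56.7 CPM (SD, n = 4 each), which edgeR put at 1.06 on the log2 scale (SE 0.08, adjusted p = 1.43e-06). Of all genes tested, 8.32% had a larger rise.

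The gene dlg1 encodes Discs large, a scaffold with PDZ domains found at the septate junctions of epithelia and at synapses, and lies on chromosome X (BDGP6 11369665 to 11409776). Its levels were 297, 271, 266 and 283 CPM in CD and 182, 216, 202 and 188 CPM in HSD. Every HSD library was below every CD library. The mean fell from 279 ± 13.9 to 197 ± 15.1 CPM (SD, n = 4 each), which edgeR put at -0.50 on the log2 scale (SE 0.07, 95% interval -0.66 to -0.35, adjusted p = 0.000154). Neuronal markers fell along with dlg1: all 8 genes of the list were called lower, and their summed level was 1772 to 2187 CPM in CD and 89.1 to 154 CPM in HSD, with none at 0 in all libraries of a diet. Their part in the fall of dlg1 was not tested, and in bulk tissue fewer cells of a type and less RNA per cell cannot be told apart.

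The gene scrib encodes Scribble, a scaffold with leucine-rich repeats and PDZ domains that acts with Dlg and Lgl, and lies on 3R (BDGP6 26536350 to 26604051). CD libraries held 273, 298, 265 and 328 CPM and HSD libraries 314, 335, 365 and 359.7 CPM. CD replicate 4 lay above HSD replicate 1, so the diets overlapped. The mean went from 291 ± 28.6 to 343 ± 23.4 CPM (SD, n = 4 each), which edgeR put at 0.24 on the log2 scale (SE 0.08, adjusted p = 0.0297). Leaving out a single library ended the call in 4 of 8 cases, with 0.23 on the log2 scale without CD replicate 1, 0.22 without CD replicate 3, 0.21 without HSD replicate 3 and 0.22 without HSD replicate 4.

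In the Crumbs complex the transmembrane component changed most. The gene crb encodes Crumbs, the apical transmembrane protein that gives the complex its name, and lies on 3R (BDGP6 24295078 to 24314541). Its levels were 199, 252, 223 and 218 CPM in CD and 443, 457, 480.1 and 487 CPM in HSD. The HSD libraries lay close together, with a coefficient of variation of 4.39%, and none overlapped with CD. The mean rose from 223 ± 22.0 to 467 ± 20.5 CPM (SD, n = 4 each), which edgeR put at 1.07 on the log2 scale (SE 0.08, adjusted p = 1.28e-06).

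The gene sdt encodes Stardust, the scaffold that binds the cytoplasmic tail of Crumbs, and lies on X (BDGP6 8178549 to 8240474). CD libraries held 223, 212, 201 and 215 CPM and HSD libraries 272, 303, 273 and 244 CPM. The diets did not overlap, and HSD replicate 4 was the library nearest to CD. The mean rose from 213 ± 9.0 to 273 ± 24.3 CPM (SD, n = 4 each), which edgeR put at 0.36 on the log2 scale (SE 0.07, adjusted p = 0.00199).

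The gene Patj encodes a protein with several PDZ domains that binds Stardust, and lies on 3L (BDGP6 1798803 to 1802184). Its levels were 75.0, 70.2, 66.7 and 64.4 CPM in CD and 90.3, 94.5, 73.3 and 71.6 CPM in HSD. HSD replicates 3 and 4 lay within the CD range, and HSD replicates 1 and 2 lay above it. The log2 fold change was 0.26 (95% interval 0.01 to 0.50, adjusted p = 0.0717 by edgeR), so no change was called. It was 0.32 without CD replicate 1 and 0.32 without HSD replicate 4, with adjusted p of 0.0353 and 0.0272 by edgeR. Its exons share 177 bases with JTBR on the opposite strand in the annotation. JTBR had 146 to 420 counts, and the strand setting of the counting is not given in the sources used here.

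Of the Par complex, baz changed most. The gene baz encodes Bazooka, the fly Par3, which places the adherens junction and recruits the other Par proteins, and lies on X (BDGP6 17160006 to 17200728). CD libraries held 81.7, 96.8, 92.3 and 88.8 CPM and HSD libraries 134, 159, 125 and 145 CPM. The diets were apart, and the spread between HSD libraries was larger than in CD. The mean rose from 89.9 ± 6.38 to 141 ± 14.9 CPM (SD, n = 4 each), which edgeR put at 0.65 on the log2 scale (SE 0.09, adjusted p = 0.000151).

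The gene par-6 encodes the adaptor that binds aPKC and the small GTPase Cdc42, and lies on X (BDGP6 17703352 to 17707096). Its levels were 127, 122, 120.1 and 106 CPM in CD and 139.8, 161, 152 and 128 CPM in HSD. The diets only just did not overlap, since HSD replicate 4 lay at 128 CPM and CD replicate 1 at 127 CPM. By edgeR the diets differed by 0.29 on the log2 scale (SE 0.09, adjusted p = 0.0175). Without HSD replicate 2 it was 0.24 and without HSD replicate 3 it was 0.27, and neither fit called it.

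The gene aPKC encodes atypical protein kinase C, the kinase of the complex, and lies on 2R (BDGP6 14944458 to 14962969). CD libraries held 189.9, 179, 182 and 177 CPM and HSD libraries 194, 218, 202 and 184 CPM. HSD replicate 4 lay within the CD range. The log2 fold change was 0.13 (95% interval -0.02 to 0.28, adjusted p = 0.129 by edgeR), an interval that reaches up to a 1.22-fold rise. Without CD replicate 1 it was 0.17, with an adjusted p of 0.0397 by edgeR.

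E-cadherin transcripts rose with crb and l(2)gl. The gene shg lies on 2R (BDGP6 21049654 to 21057197). Its levels were 292, 344, 344 and 341 CPM in CD and 593, 691, 632 and 655 CPM in HSD. CD replicate 1 was the lowest of all libraries, and no HSD library came near the CD range. The mean rose from 330.2 ± 25.8 to 643 ± 41.3 CPM (SD, n = 4 each), which edgeR put at 0.96 on the log2 scale (SE 0.07, adjusted p = 1.94e-06), and it was 0.91 without CD replicate 1 and HSD replicate 4. Of 5 markers of trachea, another epithelium, 4 were called higher and 1 lower, against 25.9% and 26.2% of all genes tested. Their summed level was 1739.8 to 1987 CPM in CD and 2203 to 3023 CPM in HSD, with none at 0 in all libraries of a diet. The marker called lower, Gasp, went from 515 ± 21.0 to 269 ± 24.7 CPM (SD, n = 4 each), without overlap. The part of the tracheal markers in the rises of these 3 members was not tested.

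**Figure D2:**
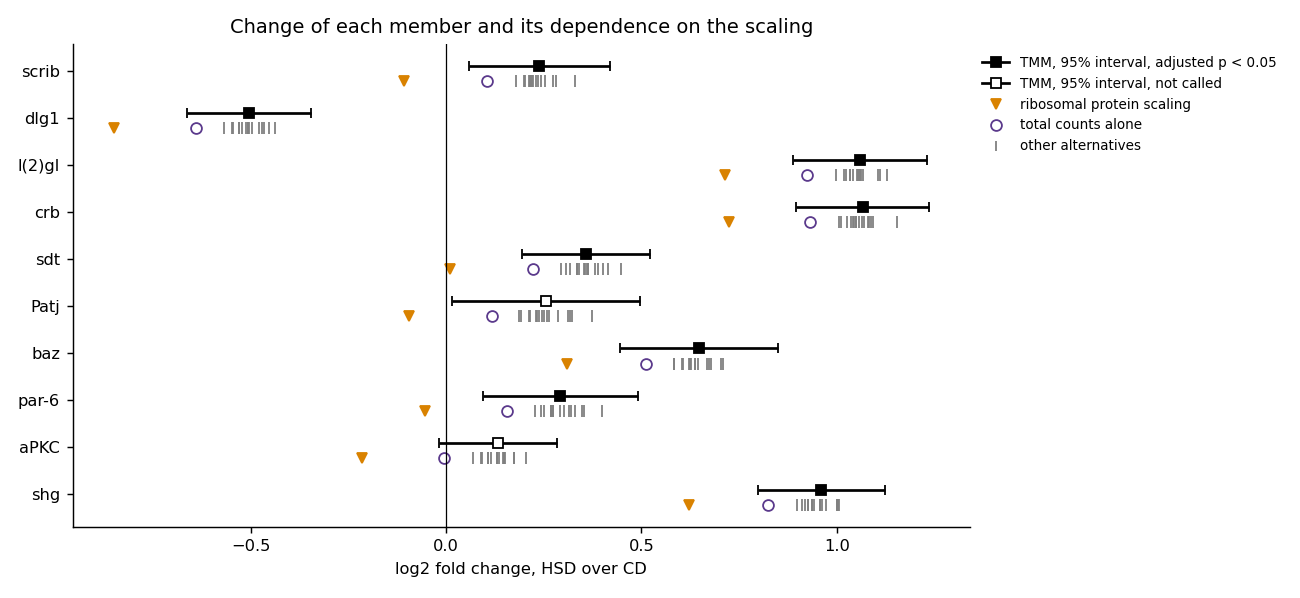
Log2 fold change of each member in HSD over CD (horizontal axis), with squares for the TMM scale and bars for its 95% interval (filled, called; open, not called). Below each square stand the values under ribosomal protein scaling (triangles), under total counts alone (circles) and under the other alternatives (ticks); dlg1, l(2)gl, crb, baz and shg keep their side of 0 under all 18.

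The choice of scaling moved all members alike. Over all genes the median on the log2 scale was 0.00 with TMM, -0.34 when libraries were scaled to cytosolic ribosomal protein genes and -0.13 with total counts alone. The share of calls that were higher in HSD was 49.8%, 21.4% and 38.1% in that order. Under ribosomal protein scaling 4 members were called higher: crb at 0.73, l(2)gl at 0.71, shg at 0.62 and baz at 0.31. The gene dlg1 was called lower there at -0.85. The signs of scrib (-0.11), Patj (-0.094), par-6 (-0.054) and aPKC (-0.21) turned and sdt stood at 0.0095, none of them with an adjusted p under 0.05 by edgeR. Relative to the median of all genes under that same scaling, scrib stood at 0.24, sdt at 0.35, par-6 at 0.29 and Patj at 0.25, values that a change of scale leaves about as they were by construction.

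Ratios of partners within a library do not depend on any scaling, and 6 pairs were compared. The ratio of crb to sdt counts was 0.890 to 1.19 in CD libraries and 1.5 to 2.0 in HSD libraries, a 1.64-fold rise of crb relative to the gene of the scaffold that binds it. Within the Scribble module the ratio of scrib to dlg1 went from between 0.917 and 1.16 to between 1.55 and 1.91. The ratio of scrib to l(2)gl fell, from between 0.662 and 0.716 to between 0.359 and 0.410. The transcripts of the 3 Scribble module genes therefore changed their proportions in both directions.

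For the Par complex, aPKC over par-6 fell slightly, from between 1.47 and 1.68 to between 1.33 and 1.43. The ratio of baz to par-6 was 0.642 to 0.840 in CD and 0.820 to 1.13 in HSD, and the diets overlapped. The ratio of shg to arm, the gene of the catenin that binds the E-cadherin tail, was 0.281 to 0.319 in CD and 0.537 to 0.580 in HSD, a rise of 1.83-fold. Each of the 5 pairs without overlap gave p = 0.0286 by a two-sided exact permutation test over 70 assignments, and 0.0343 adjusted over the 6 pairs. That p is the smallest value this design can give. The share of other gene pairs whose ratios separate the diets was not computed, and of single genes tested 50.5% did so. Since crb, dlg1, l(2)gl and shg each separated the diets alone, ratios that hold them partly repeat those calls. For baz over par-6 the exact permutation test gave p = 0.0571.

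**Figure D3:**
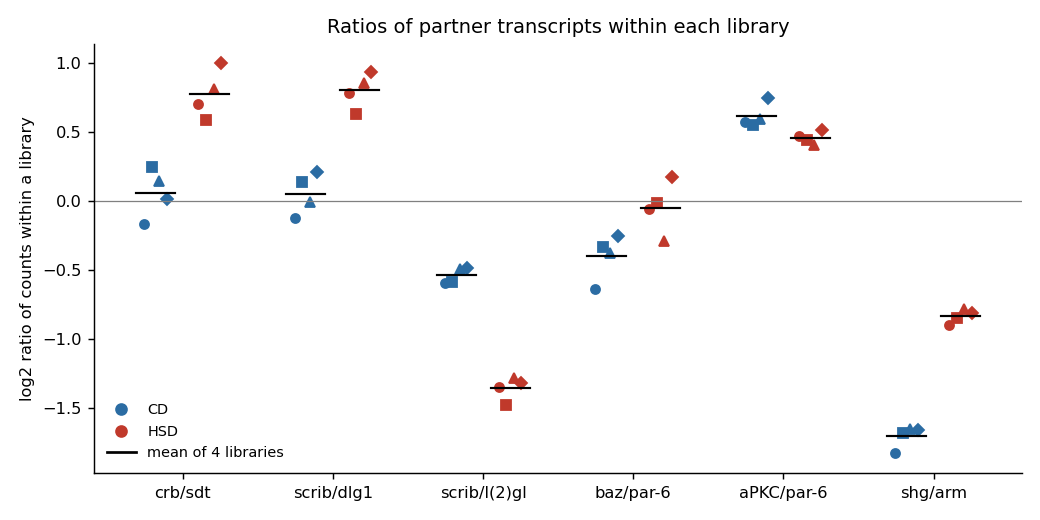
Log2 ratio of the counts of paired transcripts within each library (vertical axis), with CD in blue and HSD in red, 1 point per library, marker shape for the replicate number (circle 1, square 2, triangle 3, diamond 4) and a black bar for the mean. The HSD points lie above the CD points for crb/sdt, scrib/dlg1 and shg/arm and below them for scrib/l(2)gl and aPKC/par-6, and baz/par-6 overlaps.

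Levels were also compared between members, as CPM per kilobase of exon in the annotation. All exons of a gene were merged, so genes with many isoforms are understated. The most abundant member per kilobase was l(2)gl, at 70.6 ± 6.47 in CD and 147 ± 9.48 in HSD, followed by shg at 51.6 ± 4.03 and 100.4 ± 6.45 CPM per kilobase (SD, n = 4 each). Lowest was baz, at 8.26 ± 0.586 and 12.9 ± 1.37 CPM per kilobase. The largest moves in this order were those of crb and dlg1. The gene crb went from number 5 of 10 in CD (27.4 ± 2.70) to number 3 in HSD (57.3 ± 2.52). The gene dlg1 went from number 6 (24.3 ± 1.21) to number 9 (17.1 ± 1.31). The genes scrib, sdt, Patj, par-6 and aPKC each moved to a neighbouring place. In CD the ranges of aPKC and crb, of crb and dlg1, of Patj and sdt, and of sdt and scrib overlapped. In HSD those of aPKC and Patj, of Patj and sdt, and of scrib and dlg1 did.

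Genes that act beside the members were read from 7 lists, of which 79 genes could be tested. Of these, 35 were called higher and 19 lower in HSD. The share called, 68.4%, was close to the 67.8% of all genes at least as abundant as the least abundant member. As a background for each list, marker lists included, 25.9% of all genes tested were called higher and 26.2% lower. Of the genes at least as abundant as the least abundant member, 43.1% were called higher. The counts rest on the scaling. Under ribosomal protein scaling 2 adherens junction partners were called higher and 4 lower, and 3 and 5 of the polarity partners. The same counts were 3 and 7 for the other cadherins, and 3 and 6 for the endosomal sorting genes. There 5 actomyosin genes and 2 of the asymmetric division partners were called higher.

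At the adherens junction, 5 of 10 partner genes were called higher and 1 lower, with a list median of 0.29. No rise was called for the catenin genes. The arm gene (Armadillo, beta-catenin) had a log2 fold change of 0.09 that turned to -0.25 under ribosomal protein scaling and -0.044 under total counts alone, with an adjusted p of 0.203 by edgeR on the TMM scale. Under ribosomal protein scaling arm was called lower (adjusted p = 0.0265 by edgeR). For alpha-Cat it was -0.08 (adjusted p = 0.379 by edgeR), and this gene was called lower under ribosomal protein scaling (-0.42) and total counts alone (-0.21). The gene p120ctn, whose product binds the cadherin tail near the membrane, went from 294 ± 30.5 to 252 ± 6.16 CPM (log2 fold change -0.22, adjusted p = 0.0291 by edgeR). That call was lost without CD replicate 3 or 4 or HSD replicate 1, 2 or 3, and the value was -0.12 without CD replicate 4. Higher in HSD were Vinc, the actin linker vinculin, by 1.08 on the log2 scale (SE 0.08), sdk, a cell adhesion protein of tricellular junctions, by 0.80 (SE 0.07), and the scaffolds cno, by 0.56 (SE 0.08), and Magi, by 0.53 (SE 0.08). Under ribosomal protein scaling cno and Magi were not called.

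Of 14 polarity partners tested, 5 were called higher and 2 lower, with a median of 0.14. The gene ex, whose FERM domain protein Expanded binds the tail of Crumbs and acts in the Hippo pathway, rose from 323 ± 13.3 to 652 ± 36.8 CPM (1.02 on the log2 scale, SE 0.06). Moe, the actin linker moesin, rose from 1033 ± 40.0 to 1911 ± 69.6 CPM (0.89, SE 0.05), and Mer, which acts with Expanded, by 0.76 (SE 0.12). RhoGAP19D, a GTPase-activating protein of Cdc42, fell from 248 ± 20.4 to 117 ± 11.1 CPM (-1.08, SE 0.09).

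The other cadherins moved both ways, with 6 called higher and 4 lower of 13 tested and a median of -0.05. The gene ft, the giant cadherin Fat of planar polarity and Hippo signalling, rose from 279 ± 22.0 to 703 ± 70.1 CPM (1.33 on the log2 scale, SE 0.09). CadN, the N-cadherin of neurons, fell from 421 ± 38.5 to 79.6 ± 19.3 CPM (-2.40, SE 0.16), and stan, the planar polarity cadherin Flamingo, by 1.29 on the log2 scale (SE 0.16). CadN2 was low, with means of 7.88 ± 2.28 CPM in CD and 3.39 ± 1.01 CPM in HSD. It changed by -1.22 on the log2 scale and was not called without CD replicate 4 (-1.02). The neuronal markers given beside dlg1 fell in the same libraries as CadN, and their part in its fall was not tested.

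**Figure D4:**
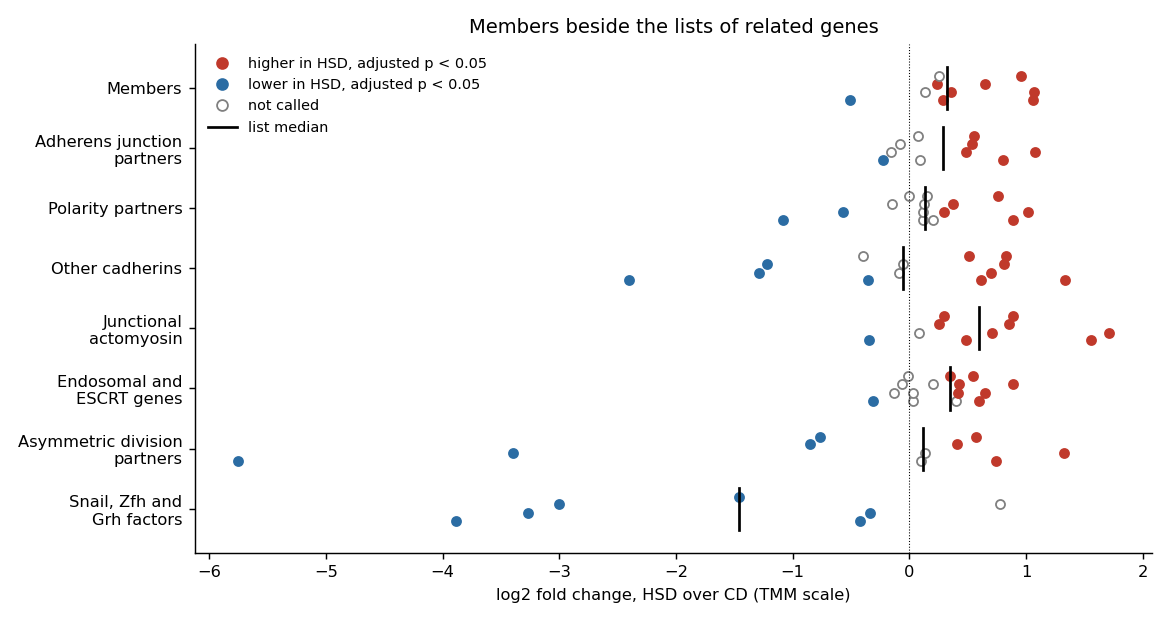
Log2 fold change in HSD over CD on the TMM scale (horizontal axis) of the members and of the genes tested in each list of related genes, with red for genes called higher, blue for genes called lower, open grey for genes not called and a black bar for the list median. The members' median is 0.33, the junctional actomyosin genes have the highest median, 0.60, and the list of Snail, Zfh and Grh factors the lowest, -1.46.

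Genes of the actin and myosin network that pulls on adherens junctions were mostly higher, with 8 called higher and 1 lower of 10 tested and a median of 0.60. The filamin gene cher rose from 275 ± 9.90 to 902 ± 125 CPM (1.71 on the log2 scale, SE 0.09) and the formin gene dia from 85.0 ± 5.50 to 250 ± 17.6 CPM (1.55, SE 0.08). The gene ena, an actin elongation factor, rose by 0.89 (SE 0.11), and sqh, the myosin regulatory light chain, by 0.86 (SE 0.07).

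Endosomal sorting genes, several of which are themselves neoplastic tumour suppressors because they clear Crumbs and receptors from the membrane, had 7 called higher and 1 lower of 15 tested and a median of 0.35. The ESCRT components Vps28, TSG101 and shrb rose by 0.89 (SE 0.16), 0.65 (SE 0.07) and 0.59 (SE 0.06) on the log2 scale. The late endosome GTPase gene Rab7 rose by 0.55 (SE 0.07) and was not called under ribosomal protein scaling.

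Of the transcription factors that repress or activate epithelial genes, 6 of 7 tested were called lower in HSD and none higher, with a median of -1.46. The falls differed in size. The smallest one called was that of grh, from 223 ± 22.7 to 177 ± 29.7 CPM (log2 fold change -0.34, adjusted p = 0.0329 by edgeR), and its diets overlapped. The Snail family genes wor, sna and scrt changed by -3.89 (SE 0.59), -3.27 (SE 0.46) and -3.0 (SE 0.25) on the log2 scale. The first went from 29.0 ± 4.78 to 1.95 ± 1.34 CPM, and sna, a known repressor of shg in the embryo, from 13.2 ± 2.19 to 1.35 ± 0.896 CPM (SD, n = 4 each). The gene zfh1 fell by 1.46 (SE 0.13). The genes wor and scrt are also known in neuroblasts and neurons, and neuroblast markers, a list that holds wor itself and the genes mira and insc below, moved with them: 5 of 6 were called lower and 1 higher, and the summed level was 300.2 to 308 CPM in CD and 113 to 147 CPM in HSD, with none at 0 in all libraries of a diet. Their part in these falls, that of sna among them, was not tested, nor was any bearing of sna on shg.

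In dividing neuroblasts the Par complex works with a further set of proteins, read here as 10 genes, of which 4 were called higher and 4 lower, with a median of 0.12. The gene insc, whose product Inscuteable links Bazooka to the spindle machinery, rose from 30.9 ± 7.83 to 77.2 ± 15.8 CPM (1.32 on the log2 scale, SE 0.19). The cargo adaptor gene mira fell from 104 ± 17.0 to 9.85 ± 2.79 CPM (-3.40, SE 0.21), and brat, a growth repressor carried by Miranda, by 0.85 (SE 0.10). The gene pros, which Miranda also carries, had 1611, 1724, 1999 and 1934 CPM in CD and 4.64, 88.9, 25.2 and 15.9 CPM in HSD. Its log2 fold change was -5.75 (SE 0.74), and -6.90 without HSD replicate 2. The neuronal and neuroblast markers given above fell in the same libraries as pros, mira and brat, and their part in these falls was not tested.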

How the data were processed

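RNA from pooled dissected tumours was sequenced as stranded, paired end TruSeq mRNA libraries. According to the methods and the submitters' notes, the authors demultiplexed with CASAVA 1.8.4, trimmed reads with Trim Galore 0.4.4, aligned them to dm3 with TopHat2 2.0.11 and counted them per gene with featureCounts. The deposited values are raw counts per gene. The strand setting and the treatment of reads with several alignments are not given in the sources used here.

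Libraries held 11558860 to 19963565 counts. Counts were tested for diet with the quasi-likelihood test of edgeR 4.0.16 in R 4.3.3, after filterByExpr and TMM scaling, two-sided, and p-values of the 9257 genes tested were adjusted together by Benjamini-Hochberg, with a threshold of 0.05. A gene is called where it passes that threshold. CPM are counts per TMM-scaled library size times 1000000. The SE is the log2 fold change divided by the square root of F, and intervals are 95%. P-values measure the spread between pooled samples, and no interval corrects for the lack of molecular identifiers.

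Symbols came from a table of gene names (15002 of 15682 identifiers matched). Positions and exon lengths came from the Ensembl BDGP6 annotation, which is later than dm3, and coordinates were left unconverted. Ratios used counts plus 0.5 and an exact permutation test (scipy 1.17.1). The edgeR test was also run on simulated counts, in which far fewer genes were changed than were called here. That run does not check the scaling where many genes change.

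The members and the lists of related genes were chosen with earlier results of these data known. PDZ-GEF, ds, esg, Syx7, Vps4, Sec5, Sec6, Sec15, Exo84, zip and Shroom were not analysed here. Named in the text are all members, the catenins, and at most 4 genes per list of related genes. The genes named from a list had its largest changes among those called, at 5 CPM or more in the higher diet and without overlap between diets. JTBR, Csk and Ras85D were named for the reasons given with them. Beyond these, grh and the tracheal marker Gasp were named after their values were seen. They are not among the named related genes counted below.

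Alternatives were DESeq2 1.42.0 and its size factors, limma-voom (limma 3.58.1), upper quartile, total counts, ribosomal protein scaling, 2 other filters, an adjusted p under 0.01, each library left out, replicate number as a block, and a pseudocount of 5 for ratios. Leaving out CD replicate 1 and HSD replicate 4 together was added after seeing the data.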

Additional observations from a re-analysis of the deposited data

Results flagged for a closer look

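A library far from the other 3 of its diet was looked for in the members, the named related genes and the 6 ratios, 94 groups of 4 in all, by Dixon's ratio at its 95% limit. For levels the ratio was computed on log2 CPM, while CPM are printed below. The limit was passed in 7 groups, where chance gives about 4.7. For 5 of the 7 the library was CD replicate 1. Among the members this was shg alone, at 292 CPM in CD replicate 1 against 341 to 344 CPM in the other CD libraries (ratio 0.934), and its rise was called without that library too. CD replicate 1 was also the lowest CD library for ex (303 CPM against 329 to 329.5 CPM, ratio 0.976), brat (1011 CPM against 1289 to 1354 CPM, ratio 0.831) and alpha-Cat (300.4 CPM against 347 to 353 CPM, ratio 0.893), and the highest for Rab7 (199 CPM against 172 to 175 CPM, ratio 0.873). In HSD, replicate 1 had the lowest level of RhoGAP19D (100.4 CPM against 122 to 123 CPM, ratio 0.956) and of wor (0.107 CPM against 2.16 to 3.33 CPM, ratio 0.875). That level of wor rests on 2 counts.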

How the results depend on the processing

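Of 180 values of the 10 members under 18 alternatives, 156 kept direction and side of the threshold. The threshold of 0.01 is not among these 18. At 0.01, scrib (adjusted p = 0.0297 by edgeR) and par-6 (adjusted p = 0.0175 by edgeR) would not be called. The calls of dlg1, l(2)gl, crb, baz and shg held under all 18. The rise of scrib was not called with upper quartile scaling (0.18), DESeq2 size factors (0.21), total counts alone (0.10), a filter of 10 counts in each library (0.20), a filter of 1 count in all (0.22) or without CD replicate 1 and HSD replicate 4 (0.20), and ranged from 0.21 to 0.33 with a library left out. Under total counts alone par-6 (0.16) was not called and aPKC stood at -0.0044. Under ribosomal protein scaling scrib (-0.11), Patj (-0.094), par-6 (-0.054) and aPKC (-0.21) changed sign, sdt (0.0095) was not called, and arm, not called on the TMM scale, was called lower at -0.25 (-0.044, not called, under total counts alone). There 4 members and 1073 genes were called higher and 3948 genes lower, against 7, 2400 and 2423 on the TMM scale. With a library left out, Patj ranged from 0.19 to 0.32, par-6 from 0.24 to 0.35 and aPKC from 0.089 to 0.17; without CD replicate 1 and HSD replicate 4 Patj (0.37) and aPKC (0.21) were called. The cause was not tested. The 6 ratios kept their direction under every alternative. Of 556 values of 31 named related genes, 543 kept direction and call.

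Replicate numbers did not pair the samples: deviations of same-numbered libraries correlated from -0.15 to 0.07, and no CD library correlated best with its own number. With the replicate block the members' calls were as without it (scrib 0.24, adjusted p = 0.0229; Patj 0.25, adjusted p = 0.0503, by edgeR).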
